A study of Arabidopsis thaliana with 12 samples.

Results

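Transcripts of 9 pentatricopeptide repeat (PPR) genes of the PLS class were followed in Arabidopsis thaliana under dim and bright blue light. The genes were AT1G31790, OTP85 (AT2G02980), AT2G46050, AT3G22150, AT3G22690, AT3G26630, AT3G49740, AT3G51320 and CRR21 (AT5G55740). They were chosen by name from the genes for which the array annotation gives a probe naming that gene alone, 9 of 691 such genes, with 1 probe for each. All samples were total RNA of wild-type plants of the Landsberg ecotype, exposed for 48 h to blue light of 20 µE (6 samples) or grown for the final 48 h under blue light of 200 µE (6 samples), µE being shorthand for a photon flux. The labels name no transgene, mutation or treatment other than light, and do not state the tissue, the plants' age or how many plants made up a sample. The comparison asked how the level of each transcript differed between bright and dim blue light.

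PPR proteins are encoded in the nucleus and imported into plastids or mitochondria. There they bind RNA through tandem helical repeats, many of which read a base. In the PLS class, repeats of different length alternate, and many members end in E and DYW domains. These proteins select single cytidines in organelle transcripts that are then converted to uridine, and the DYW domain has the signature of a cytidine deaminase. Of the genes followed here, CRR21 and OTP85 are both known for editing sites in the plastid ndhD transcript, which encodes a subunit of the NDH complex of cyclic electron flow around photosystem I. The annotation used here gives the other 7 genes no name beyond their locus, so no target is stated for them.

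The array table holds intensities in arbitrary units with a mean of 0.814 to 1.04 per column. Its columns differed in shape between the groups. Median intensity was 0.504 ± 0.079 units at 20 µE and 0.195 ± 0.020 units at 200 µE (SD, n = 6 columns), and 12.4 to 14.3% of the values at 20 µE and 16.5 to 18.3% at 200 µE were listed at 0. Changes are therefore given on a log2 scale after quantile normalisation, which compares the place of a transcript within its column, and the deposited intensities are printed beside them. Within a group, neighbouring columns (numbers 1 with 2, 3 with 4, 5 with 6) departed from the group mean together (correlations of 0.26 to 0.82, against at most 0.16 between other columns), and each such couple was averaged. Each mean ± SD below is taken over the 3 couples of a group. A gene is said to have risen or fallen only with an adjusted p under 0.05 (limma, Benjamini-Hochberg over 1445 features), both over couple means and over the 12 columns. Nothing in the labels says that samples came from separate plants, so the p-values measure a spread that may be technical in part. The test over 12 columns counts the members of a couple as independent, so its p-values are too small where couples share their spread, and no gene is said to have risen or fallen from it alone.

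Of the 9 genes, 7 had a value above 0 in at least 1 column and were tested. After quantile normalisation 3 of them, AT3G22150, AT3G51320 and CRR21, rose at 200 µE, whereas over all tested features 12.9% were higher over couple means and 25.5% over 12 columns. None of the 7 fell, against 14.5% of all tested features lower over couple means (limma; 4 of the 7 had an unadjusted p under 0.05, including AT3G26630, which was lower). Over 12 columns, AT3G26630 was the 1 member called lower, against 29.4% of all features. OTP85 and AT3G22690 were listed at 0 in all 12 columns, as were 50 of the 691 single-gene transcripts (7.24%), and give no comparison. A value of 0 means that no signal was listed, not that the transcript was absent. Over the 6 genes with values above 0 in both groups the median log2 change was 0.81, against -0.07 over the 1349 features with values above 0 in both groups.

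**Figure D1:**
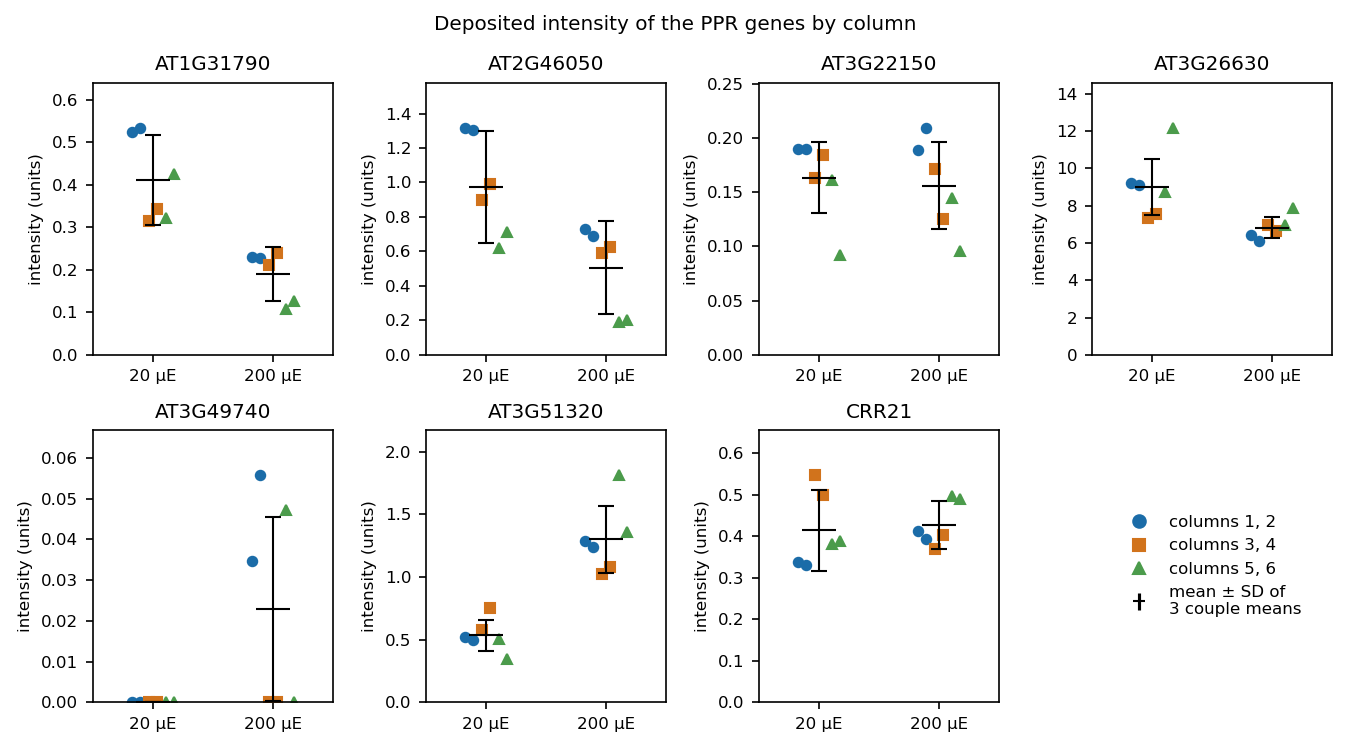
Deposited intensity (arbitrary units, linear axis from 0, a separate scale per gene) of the 7 PPR genes with a value above 0, in each column at 20 µE and 200 µE of blue light, with couples of columns marked by colour and shape and the mean ± SD of 3 couple means as a bar. AT3G51320 was above 1 unit in every 200 µE column and at most 0.755 units at 20 µE, AT1G31790 was lower in every 200 µE column, and the groups of AT3G22150 and CRR21 overlapped in these units.

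AT3G51320 passed as higher at 200 µE with all 3 scalings, although the size of the change differed between them. Its deposited intensity at 20 µE had a lowest value of 0.343, a median of 0.514 and a highest value of 0.755 units, and at 200 µE these were 1.03, 1.27 and 1.81 units. Every 200 µE column lay above every 20 µE column, as deposited and after normalisation. Without overlap and higher at 200 µE were 5.26% of the tested features as deposited and 16.8% after quantile normalisation. The couple means were 0.535 ± 0.123 units at 20 µE and 1.30 ± 0.268 units at 200 µE (SD, n = 3 couples), and the log2 change was 2.08 ± 0.23 (SE; adjusted p = 0.00552 over couple means and 3.29e-06 over 12 columns, limma). The change was 1.30 without normalisation (adjusted p = 0.0112) and 2.65 after centring each column on its median (9.33e-04). AT3G51320 was thus the only one of the 7 to pass as higher under all 3 scalings. The transcript lay at the 51.9th percentile of its column on average at 20 µE and at the 89.0th at 200 µE. By couple, the log2 difference between the groups was 2.20 for columns 1 and 2, 1.61 for columns 3 and 4 and 2.43 for columns 5 and 6. The call over couple means was lost when columns 1 and 2 or columns 3 and 4 of both groups were left out (adjusted p = 0.111 and 0.0791), with a change of 2.02 and 2.31.

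CRR21, whose protein is needed for editing of ndhD, had similar deposited intensities in both groups, while the median intensity of the columns was lower at 200 µE. Its lowest, median and highest values were 0.330, 0.385 and 0.547 units at 20 µE and 0.370, 0.409 and 0.498 units at 200 µE. The groups overlapped in these units, and columns 3 and 4 were the highest of their group at 20 µE but not at 200 µE. Couple means were 0.414 ± 0.098 and 0.428 ± 0.058 units (SD, n = 3 couples). After quantile normalisation CRR21 ran from -2.59 to -1.74 at 20 µE and from -0.97 to -0.41 at 200 µE, with no overlap, and rose by a log2 change of 1.30 ± 0.29 (SE; adjusted p = 0.0299 over couple means and 1.76e-04 over 12 columns, limma). On this scale 16.8% of the tested features were higher at 200 µE without overlap. CRR21 stood at the 43.1st percentile of its column at 20 µE and at the 69.9th at 200 µE. Median centring gave 1.42 (adjusted p = 0.0111 over couple means), and without normalisation the change was 0.06 (0.871). So the rise is relative to the other transcripts of the column, and CRR21 was not shown to change in deposited units. Its differences by couple were 1.64, 0.92 and 1.33, and leaving out any couple of both groups ended the call (adjusted p between 0.0768 and 0.164, with 2 couples per group), with changes of 1.13, 1.48 and 1.28.

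AT3G22150 likewise moved within its column rather than in deposited units. At 20 µE its lowest, median and highest intensities were 0.0919, 0.174 and 0.190 units, and at 200 µE they were 0.0962, 0.158 and 0.209 units. The groups overlapped throughout, and of the 6 same-numbered pairs 3 were higher and 3 lower at 200 µE. Couple means were 0.163 ± 0.033 and 0.156 ± 0.040 units (SD, n = 3 couples). On the quantile-normalised scale the columns separated, from -4.88 to -3.42 at 20 µE and from -2.42 to -1.70 at 200 µE, and the transcript rose by 2.09 ± 0.21 (SE; adjusted p = 0.00447 over couple means and 3.54e-05 over 12 columns, limma). Such a separation, higher at 200 µE, held for 16.8% of the tested features. The place of AT3G22150 in the column went from the 21.3rd to the 44.1st percentile. The size depended on the setting: 1.28 after median centring (adjusted p = 0.00819), 1.24 with a pseudocount of 0.0583 units in place of the floor, and -0.08 without normalisation (0.865), where the direction was reversed. AT3G22150 was among the lowest 25% of the tested features by mean normalised value, and the floor at 20 µE was 0.0188 to 0.0465 units. By couple, the difference between the groups was 2.01 for columns 1 and 2 and 2.27 for columns 3 and 4, with columns 5 and 6 just under the former. The call was lost without columns 1 and 2 of both groups (change 2.13, adjusted p = 0.0955) or 3 and 4 (0.0791), where the change was of similar size.

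**Figure D2:**
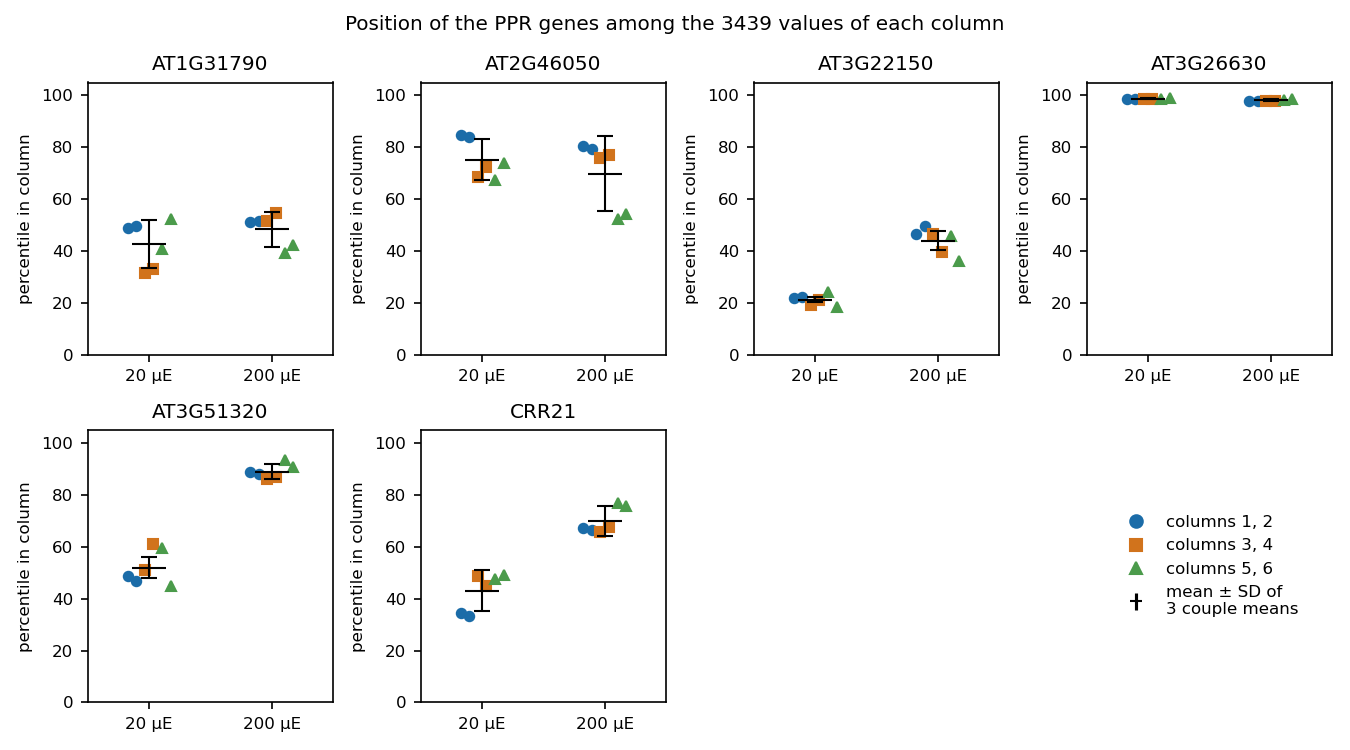
Percentile of each PPR gene among the 3439 values of its column (higher is brighter) at 20 µE and 200 µE, for the 6 genes with values above 0 in both groups, with couples marked by colour and shape and mean ± SD of 3 couple means as a bar. AT3G51320 moved from a mean of 51.9 to 89.0, CRR21 from 43.1 to 69.9 and AT3G22150 from 21.3 to 44.1, while the groups of AT1G31790 and AT2G46050 overlapped.

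Lower deposited values marked AT1G31790 and AT2G46050, but neither changed its place in the column by more than its spread. AT1G31790 had lowest, median and highest values of 0.315, 0.384 and 0.534 units at 20 µE and 0.108, 0.221 and 0.239 units at 200 µE. In these units every 200 µE column was below every 20 µE column, which held for 47% of the tested features. The couple means were 0.411 ± 0.105 and 0.191 ± 0.064 units (SD, n = 3 couples). Its log2 change was 0.32 after quantile normalisation (95% interval -0.52 to 1.15, adjusted p = 0.506 over couple means), 0.22 after median centring (0.622) and -1.14 without normalisation (0.0367, limma). The median change over all tested features without normalisation was -1.30, so AT1G31790 lay 0.16 above it. The couples disagreed: the normalised difference was 1.13 for columns 3 and 4, 0.10 for columns 1 and 2 and -0.29 for columns 5 and 6.

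AT2G46050 had lowest, median and highest values of 0.619, 0.945 and 1.32 units at 20 µE and 0.192, 0.610 and 0.731 units at 200 µE. All 6 same-numbered pairs were lower at 200 µE as deposited, although the groups overlapped, and columns 5 and 6 were the lowest of both groups. The share of all tested features lower in all 6 pairs was not counted, but their median change without normalisation was -1.30. Couple means were 0.974 ± 0.323 and 0.506 ± 0.271 units (SD, n = 3 couples). The log2 change was -0.27 after quantile normalisation (95% interval -1.36 to 0.82, adjusted p = 0.672 over couple means and 0.456 over 12 columns, limma), 0.27 after median centring and -1.09 without normalisation, so no direction is given.

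AT3G26630 had the same downward sign in all 6 pairs, with a small change whose sign turned with the scaling. Its lowest, median and highest intensities were 7.36, 8.90 and 12.2 units at 20 µE and 6.08, 6.80 and 7.87 units at 200 µE. The groups overlapped by 2 values, columns 3 of the 20 µE group at 7.36 and 4 of the same group at 7.55 lying below column 6 at 200 µE. Couple means were 9.02 ± 1.50 and 6.83 ± 0.579 units (SD, n = 3 couples). The log2 change was -0.53 ± 0.20 (SE) after quantile normalisation, with an adjusted p of 0.107 over couple means and 0.00502 over 12 columns (limma), -0.39 without normalisation (0.284 over couple means) and 0.97 after median centring (0.0495 over couple means). It is not called lower here. Without normalisation the median change over all tested features was -1.30, more negative than that of AT3G26630. The transcript stayed near the top of each column, at the 98.8th percentile at 20 µE and the 98.1st at 200 µE.

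A further probe names AT3G26630 together with AT2G42920. After quantile normalisation its change had the opposite sign to that of the probe of AT3G26630 alone. After median centring the signs were the same, and without normalisation neither probe passed over couple means. The shared probe gave 0.033 ± 0.029 units at 20 µE and 0.056 ± 0.031 units at 200 µE (SD, n = 3 couples), with 2 and 1 columns listed at 0. The groups overlapped, and the values were small enough for the floor to matter. Its log2 change was 2.58 ± 0.53 (SE; adjusted p = 0.0247 over couple means) after quantile normalisation, 1.42 after median centring (0.0864) and 0.06 without normalisation (0.949, limma). Which of the named genes the signal came from was not tested.

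For AT3G49740 all 6 columns at 20 µE and 3 columns at 200 µE held a 0. The other 3 columns at 200 µE read 0.0347, 0.0557 and 0.0472 units (columns 1, 2 and 5), so no fold is given. It did not pass over couple means (adjusted p = 0.172) or over 12 columns (0.0673, limma). Its values rest on the floor given to zeros, which was 0.0188 to 0.0465 units at 20 µE and 0.0040 to 0.0087 units at 200 µE. Of the 1445 tested features, 42 were likewise listed at 0 in all 20 µE columns only. The opposite pattern, 0 in all 200 µE columns only, held for 54.

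**Figure D3:**
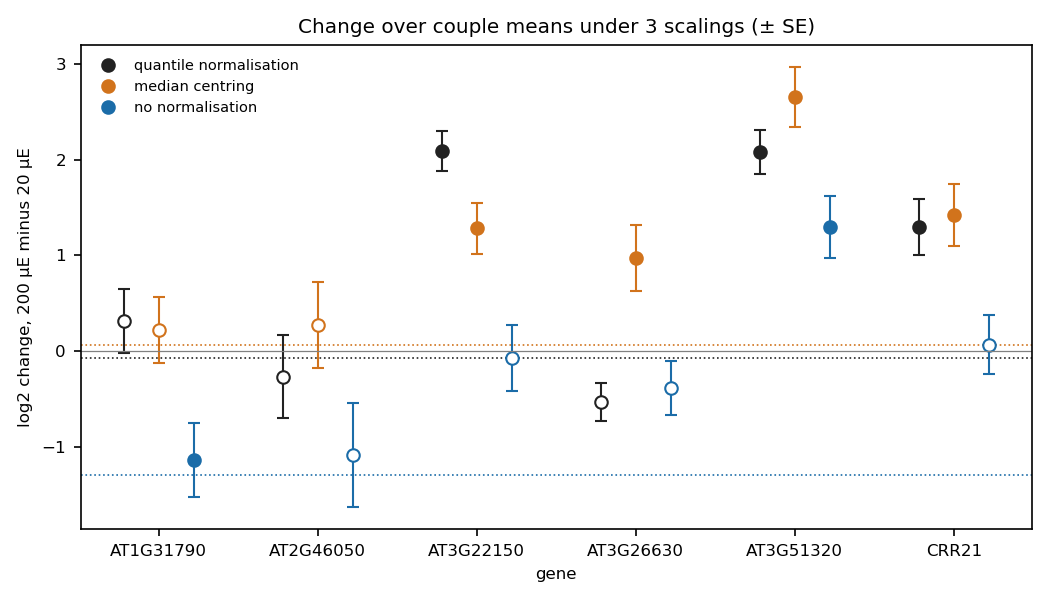
Log2 change (200 µE minus 20 µE, couple means, ± SE) of the 6 PPR genes with values above 0 in both groups under quantile normalisation, median centring and no normalisation. Filled points passed at an adjusted p under 0.05, open points did not, and dotted lines mark the median change of all 1445 tested features. AT3G51320 was filled and above 0 in all 3, CRR21 and AT3G22150 in 2, and AT3G26630 had opposite signs under centring (0.97) and quantile normalisation (-0.53).

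Scaling decided how many members passed. Over couple means, 4 of the 7 were higher and none lower after median centring (24.8% and 23% of all tested features), and 1 was higher and 1 lower without normalisation (4.71% and 53.8%, limma). Over 12 columns the counts were 4 higher and 0 lower after centring (34.9% and 31.1% of all tested features) and 1 higher and 3 lower without normalisation (7.75% and 65.5%). Among all 1445 features 397 passed after quantile normalisation, 691 after centring and 845 without normalisation, of which 47.1%, 52.0% and 8.05% were higher at 200 µE. The median over the 6 members with values in both groups was 1.13 after centring and -0.23 without normalisation, beside 0.19 and -1.17 over the 1349 features. The shift was not the same for all transcripts: AT3G26630 changed by -0.39 without normalisation and by -0.53 after quantile normalisation, while the 200 µE columns had lower medians than the 20 µE columns.

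**Figure D4:**
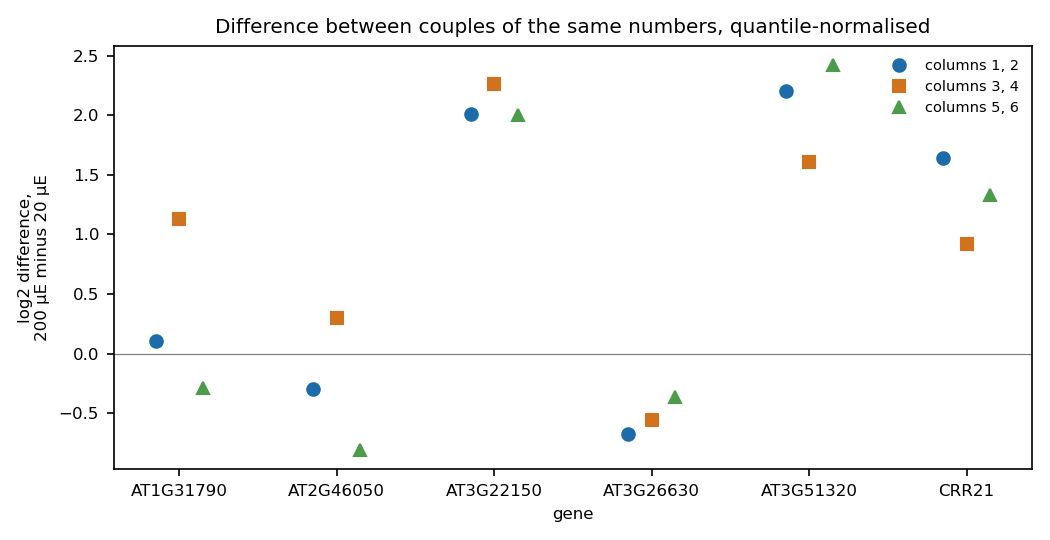
Quantile-normalised log2 difference between couples of the same column numbers (200 µE minus 20 µE) for the 6 PPR genes with values above 0 in both groups. All 3 differences were above 0 for AT3G22150, AT3G51320 and CRR21 and below 0 for AT3G26630, and the differences of AT1G31790 (-0.29 to 1.13) and AT2G46050 (-0.81 to 0.30) spanned 0.

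Members also differed in how their columns spread. In deposited units, the couple of columns 5 and 6 at 200 µE had the lowest mean for AT1G31790, AT2G46050 and AT3G22150 and the highest for AT3G51320, CRR21 and AT3G26630. These columns had the lowest overall mean intensities of the group, 0.814 and 0.825 units. The share of this in the values of the members was not tested.

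The single-gene transcripts most similar to the 3 risen members were found by Pearson correlation of quantile-normalised values over the 12 columns among 634 genes. For AT3G51320 these were AT1G01080 (0.983), AT4G38490 (0.979) and AT1G18290 (0.966). For CRR21 they were AT1G51080 (0.984), AT1G01080 (0.974) and AT-HF (0.951), and AT1G01080 is thus shared by both. For AT3G22150 they were AT3G19120 (0.958), AT4G15840 (0.948) and AT3G15140 (0.940). All 9 values contain the difference between the groups and the couples, and no p is given.

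No other listed gene of organelle RNA editing that was found by name had a probe of its own. Of 129 names in 6 lists (plastid and mitochondrial editing PPR proteins, editing partners such as the MORF proteins, NDH subunits and assembly factors, partners of the plastid RNA polymerase, and the plastid ATP synthase), 94 were found in the gene table and 35 could not be looked up. Of the 94, 3 had a probe naming them alone, all in the NDH list. Of the 72 names in the 3 editing lists 46 were found, and 0 of these had such a probe. Whether the names not looked up had a probe of their own is not known. NdhN, an NDH subunit, and CRR41, an NDH assembly factor, were listed at 0 in all columns and were not tested. NdhS, the subunit with the ferredoxin-binding site, read 5.85, 7.98 and 10.4 units (lowest, median, highest) at 20 µE and 6.87, 10.5 and 11.3 units at 200 µE, and had a log2 change of 0.07 ± 0.27 (SE; adjusted p = 0.870, limma), but 1.61 after median centring (0.00418). After quantile normalisation 12.9% of all tested features were higher and 14.5% lower.

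Of the listed editing PPR genes that were found, 4 were on probes shared with other genes. The probe naming OTP86, a plastid editing factor, and AT4G21300 read 1.07, 1.79 and 2.18 units (lowest, median, highest) at 20 µE and 0.0498, 0.250 and 0.416 units at 200 µE, with no overlap. Such a separation, lower at 200 µE, held for 47% of the tested features in these units. The signal of the OTP86 probe fell by 2.31 on the log2 scale (adjusted p = 0.0369 over couple means and 5.11e-04 over 12 columns, limma). It was also lower after median centring (-1.72, 0.0419) and without normalisation (-3.08, 0.00677). Over couple means, 14.5% of all tested features were lower after quantile normalisation, 23% after centring and 53.8% without normalisation. The probe naming OTP80, AT5G43790 and AT4G37380 had a change of -0.60 (adjusted p = 0.289), -0.28 after centring (0.596) and -1.63 without normalisation (0.0200). That naming OTP87, which edits mitochondrial transcripts, and AT1G23450 had a change of 0.58 (0.249), 0.74 after centring (0.105) and -0.62 without normalisation (0.0956). The probe naming LPA66 and AT2G42920 was listed at 0 in all columns. In the ATP synthase list, 1 probe named both ATPC1 and ATPC2, copies of the gamma subunit, with 0.803 ± 0.049 units at 20 µE and 0.275 ± 0.075 units at 200 µE (SD, n = 3 couples). Its change was -0.52 (adjusted p = 0.315), -0.23 after centring (0.628) and -1.59 without normalisation (0.00445). For such probes the signal cannot be assigned to a gene.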

How the data were processed

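Total RNA of 12 samples, 6 per light level, was measured on arrays, and the deposited table of 3439 probes was used. The deposited values are linear intensity; how the authors made them from the scans, with what background correction and scaling, is not given in the sources used here. Group and replicate number come from the sample titles. Probes were named through the platform annotation joined by gene identifier to the TAIR10.1 gene table (692 probes with 1 gene, 870 with several, 1877 not listed; 690 of 692 identifiers found, 2 kept the annotation's name). No sequences or coordinates are given, since none came for this array's build.

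In each column values under the 1st percentile of the positive values (0.0040 to 0.0465 units) were set to it, and the log2 values of all probes were then quantile-normalised. Of 1561 listed features, 116 at 0 throughout were left out, and 1445 were tested with limma 3.58.1 in R 4.3.3 (lmFit, eBayes, two-sided, 200 µE minus 20 µE, no block, Benjamini-Hochberg, threshold 0.05) over couple means (3 per group) and over 12 columns. The scripts were tested on simulated data. Same-numbered columns of the groups deviated together (correlations 0.17 to 0.55 for 6 pairs). This was read as pairing, although no label gives the meaning of a number. The main fits did not use the pairing. With a replicate block the adjusted p over couple means was larger for each risen member, as given below.

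All 9 members are named whatever their values. From the lists, members on a probe of their own or on a shared probe were named, and nearest transcripts were the 3 with the highest correlation. A list of all PPR genes by description was not run, because the gene table holds no descriptions. Members and lists were chosen with earlier results of these data known. Precision is limited by the number of couples, 3 per group, and the number of separate plants is not stated. Alternatives were a replicate block, other scalings, floors and feature sets, a variance trend, array weights, a random block, a threshold of 0.01 and leaving out columns or couples.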

Additional observations from a re-analysis of the deposited data

How the results depend on the processing

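Over couple means, 3 members were higher and 0 lower at 200 µE. Without normalisation these counts were 1 and 1, and array weights gave 1 lower (AT3G26630). Leaving out any single column kept 3 higher and 0 lower. Leaving out a couple of both groups, with 2 couples per group, gave 0 to 2 higher and 0 to 1 lower. The share of all tested features passing with columns or couples left out was not counted. Over 12 columns, 3 were higher and 1 lower. These became 1 and 3 without normalisation, the lower count was 0 after median centring and 0 with the couple as a random block, and leaving out columns or couples gave 3 to 4 higher and 0 to 1 lower. The count of 0 came from leaving out columns 1 and 2 of both groups (AT3G26630, adjusted p = 0.0839), and that of 4 from AT3G49740 without column 3, 4 or 6 at 200 µE or without columns 3 and 4 of both groups. With the replicate block all calls of members were kept in both fits (adjusted p over couple means 0.0182 for AT3G22150, 0.0228 for AT3G51320 and 0.0367 for CRR21). At a threshold of 0.01, CRR21 no longer passed over couple means.

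Signs turned without normalisation for AT1G31790 (-1.14) and AT3G22150 (-0.075). The fitted value of AT3G49740 turned too (-0.94), but it is set by the floor, lower at 200 µE, and is no measure of a change. They turned after median centring for AT2G46050 (0.27) and AT3G26630 (0.97), and for AT1G31790 without columns 3 and 4 of both groups (-0.093, against 0.62 without columns 5 and 6). For the genes other than AT3G49740, the cause of the turns was not tested. The filter on dim features removed AT3G22150 and AT3G49740, so neither has a value there. AT3G51320 and CRR21 kept their direction under all 26 alternatives over couple means, with changes of 1.30 to 2.65 and 0.06 to 1.50. Several alternatives, such as the replicate block, the variance trend and the stricter threshold, cannot alter the change itself. The count of alternatives is therefore no measure of support. Probe sequences were not used, so signal from related PPR genes was not assessed.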
